A study of Mus musculus with 173 samples.

Results

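Hypothalamus and thalamus, labelled as 1 specimen, were compared between mice heterozygous for the Q175 allele of the huntingtin gene and wild-type mice. The libraries were chosen by their label: 16 of the 173 libraries of the series, which covers 11 tissues, name this brain region. All 16 mice were C57BL/6 animals aged 6 months, 4 females and 4 males of each genotype. The Q175 mice carry 1 knock-in allele with an expanded run of 175 CAG codons and were housed with Q175 mice. The wild-type mice carry no knock-in allele and were housed with mice of the Q20 line, another huntingtin knock-in line. The series describes them as littermate controls, while the library names give the 4 mice of each sex and genotype a single code of their own. Genotype, housing and that code, whose meaning is not stated, therefore cannot be told apart, and neither can sex and code within a genotype. The expansion is present from conception in every cell, so the comparison concerns the whole animal and not a single cell type.

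The expanded CAG run lengthens a stretch of glutamines near the start of huntingtin, and the human form of this change causes Huntington's disease, in which striatal neurons are lost first. The thalamus relays sensory and motor signals to the cortex and is crossed by myelinated fibres, while the hypothalamus controls feeding, hormones, temperature and sleep. In both, oligodendrocytes wrap axons in a lipid-rich myelin sheath and astrocytes clear glutamate, potassium and water from around neurons. Interleukin 33, a nuclear cytokine released from damaged cells, is made in the mouse brain mainly by oligodendrocytes and astrocytes.

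The start of the mouse Htt coding sequence is shown because it holds the reference glutamine run at the place of the expansion. It is the reference sequence of transcript Htt-201 in GENCODE M21, coding bases 1 to 120, with the glutamine codons in capitals.
Htt: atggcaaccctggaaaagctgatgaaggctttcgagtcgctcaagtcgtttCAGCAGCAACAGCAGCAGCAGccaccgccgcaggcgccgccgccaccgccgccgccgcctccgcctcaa
The reference run is 7 glutamine codons long, codons 18 to 24, of which 6 are CAG and 1 is CAA. The sequence of the knock-in allele was not used here.

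Htt itself was read in every library, in CPM (estimated counts scaled to the library total with TMM factors). The Q175 females held 178, 77.8, 121 and 196 CPM and the Q175 males 185, 185, 121 and 186 CPM. The wild-type females held 234, 213, 228 and 251 CPM and the wild-type males 244, 140, 227 and 230 CPM. Every Q175 library lay below 7 of the 8 wild-type libraries, and the groups overlapped through wild-type male 2. The log2 fold change of Q175 over wild type was -0.50 ± 0.172 (SE, 8 against 8) and was not called (edgeR quasi-likelihood test, adjusted p = 0.222). The 4 lowest libraries, Q175 females 2 and 3, Q175 male 3 and wild-type male 2, were also the 4 in which values fell with gene length. Their slopes ran from -0.186 to -0.0622 log2 per doubling of length, against 0.00862 to 0.0649 in the other 12. Without those 4 libraries, which include the overlapping wild-type male 2, the Htt change was -0.32 (edgeR, adjusted p = 0.00321). With all 16 libraries and the length trend removed, it was -0.45 and not called (edgeR, adjusted p = 0.0661). DESeq2 did not call it either (adjusted p = 0.104).

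The deposited counts of a library summed to between 29.8 and 39.7 M (mega), and the labelled sex matched sex-linked transcripts in 16 of 16 libraries. The 4 libraries with the length trend stood apart on the first principal component, which held 35.7% of the variance. Q175 male 3 held 6186 summed CPM of choroid plexus and ependymal genes, against 325 to 538 CPM in the other 15 libraries. Defining markers of the region were present, with summed hypothalamic neuron transcripts of 2340 to 3516 CPM and summed thalamic neuron transcripts of 1643 to 3717 CPM.

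Of 16739 genes tested, 96 (0.574%) were called at an adjusted p under 0.05: 78 (0.466%) fell and 18 (0.108%) rose in Q175 mice. The genes that fell were mostly more abundant than those that rose. Of the 78, 26 had a mean of at least 100 CPM, while none of the 18 that rose did; the median of the mean levels was 48.6 CPM for the genes that fell and 3.44 CPM for those that rose. Changes were small: 8 genes fell and 4 rose by more than 2-fold, and the median log2 change was -0.54 among those that fell and 0.59 among those that rose. In 46 of the 96 the 8 Q175 and 8 wild-type libraries did not overlap, while 54 genes (0.323%) of all tested were so separated. Unadjusted p-values under 0.05 were more even, 1151 genes lower and 1135 higher (13.7% of those tested in all). Of the 96, 57 were called in each of the 16 fits that left out 1 library, and without wild-type male 2 the calls rose to 226, of which 72 were increases. DESeq2 called 333 genes, of which 107 rose.

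**Figure D1:**
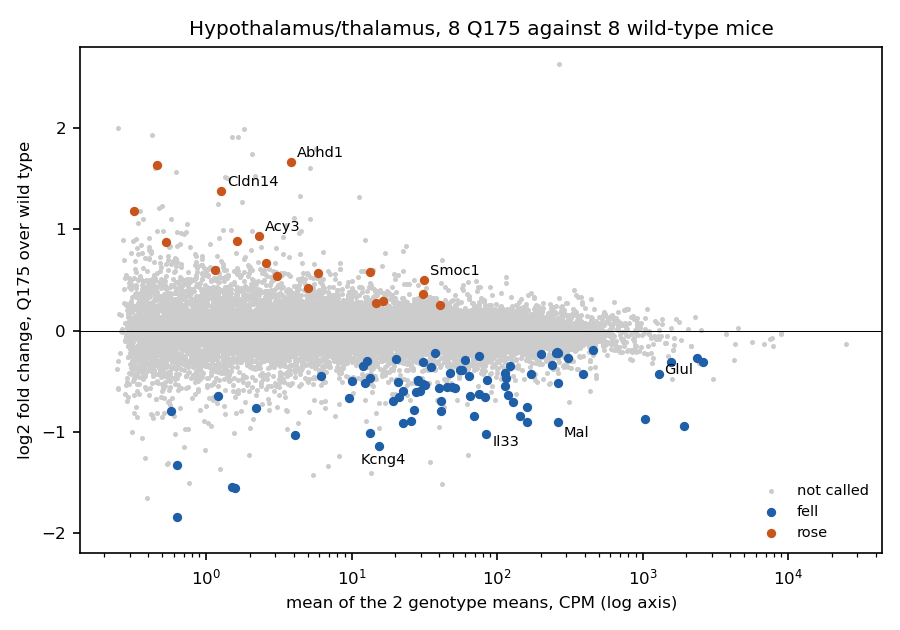
Log2 fold change of Q175 over wild type (vertical axis) against the mean of the genotype means in CPM (horizontal log axis) for the 16739 genes tested; blue points fell, orange points rose, grey points were not called. The 78 blue points reach the right side of the plot, while the 18 orange points lie at or below 40.7 CPM.

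Il33 had the smallest p of all genes. It lay at 63.3, 62.6, 53.4 and 52.2 CPM in Q175 females and at 48.7, 56.7, 54.2 and 52.2 CPM in Q175 males. It lay at 87.8, 102, 120 and 101 CPM in wild-type females and at 121, 99.6, 134 and 136 CPM in wild-type males. Every Q175 library was below every wild-type library, and Il33 fell by 1.02 ± 0.0902 on the log2 scale (adjusted p = 7.02e-05). The fall stayed between -1.07 and -0.99 with any 1 library left out. It was -1.01 with the summed habenular transcripts as a term (adjusted p = 0.00202) and -0.94 with the summed thalamic transcripts (adjusted p = 0.00137). In a list of 10 Il33 signalling genes, 9 passed the filter and only Il33 was called. Il1rl1, the receptor that binds Il33, was below the filter at a mean of 0.194 CPM in Q175 and 0.291 CPM in wild type, and Il1rap, the receptor's partner chain, changed by -0.34 ± 0.107 (adjusted p = 0.195). The relays Myd88, Irak1, Irak2, Irak4 and Traf6 changed by -0.12 to 0.12, with none called.

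Promoters of 3 genes that fell are shown as reference start regions: Il33 at both of its annotated starts, and the oligodendrocyte genes Aspa and Mal. Levels were read per gene, so the start in use was not measured. Each runs from 250 bases before to 50 bases after the start (RefSeq, GRCm38.p6), and capitals mark CAGCTG, an E-box read the same on both strands. Il33 lies at chr19:29924863-29925162 and chr19:29945540-29945839 on the plus strand, Aspa at chr11:73324588-73324887 and Mal at chr2:127656646-127656945, both on the minus strand.
Il33 start 1: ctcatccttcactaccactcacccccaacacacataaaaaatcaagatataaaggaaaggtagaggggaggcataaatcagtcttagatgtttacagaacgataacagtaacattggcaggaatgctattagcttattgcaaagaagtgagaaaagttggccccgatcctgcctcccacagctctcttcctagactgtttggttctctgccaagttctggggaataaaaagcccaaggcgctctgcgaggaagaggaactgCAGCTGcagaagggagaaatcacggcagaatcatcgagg
Il33 start 2: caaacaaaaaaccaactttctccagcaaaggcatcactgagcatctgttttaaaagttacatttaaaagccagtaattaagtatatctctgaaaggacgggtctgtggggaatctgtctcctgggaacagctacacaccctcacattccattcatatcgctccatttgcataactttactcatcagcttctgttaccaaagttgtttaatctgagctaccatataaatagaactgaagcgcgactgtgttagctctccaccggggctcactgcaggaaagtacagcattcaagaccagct
Aspa: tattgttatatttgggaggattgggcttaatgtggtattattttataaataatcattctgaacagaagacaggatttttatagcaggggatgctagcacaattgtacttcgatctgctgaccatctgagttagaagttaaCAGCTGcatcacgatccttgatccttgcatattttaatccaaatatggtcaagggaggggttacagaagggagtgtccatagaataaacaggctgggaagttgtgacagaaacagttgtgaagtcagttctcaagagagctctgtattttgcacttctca
Mal: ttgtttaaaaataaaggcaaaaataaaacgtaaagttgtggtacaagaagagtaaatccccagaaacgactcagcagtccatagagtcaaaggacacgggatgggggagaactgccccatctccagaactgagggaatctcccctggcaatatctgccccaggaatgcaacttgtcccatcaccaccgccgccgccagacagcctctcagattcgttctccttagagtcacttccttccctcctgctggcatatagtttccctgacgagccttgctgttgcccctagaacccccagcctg
CAGCTG occurred once in the upstream Il33 window and once in the Aspa window, and in neither of the others. ACAATG, the core letters of a Sox site, was searched on both strands and occurred in none of the 4 windows. Among the 10 oligodendrocyte genes that fell, 7 had promoter entries, 8 in all; 2 of the 8 held CAGCTG and 1 held ACAATG. Of 32851 promoters of the same length, 16.3% held CAGCTG and 12.6% held ACAATG. These matches describe letters only.

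Mature oligodendrocyte and myelin genes made up the largest group of the list members that fell. Of 36 listed genes, all tested, 10 fell and 0 rose (27.8% called, against 0.574% of all genes). A change below 0 was seen in 28 of the 36, against 47.9% of all genes tested. The median change was -0.22 against 0.01 over all genes. The list was chosen with earlier results of these data known, so the shares are set side by side without a test. Mal, a membrane protein that sorts myelin components, lay at 150 to 223 CPM (median 177) in Q175 against 241 to 451 CPM (median 346) in wild type, without overlap, and fell by 0.90 ± 0.121 (adjusted p = 0.00169). Car2, a carbonic anhydrase of oligodendrocytes, fell by 0.90 ± 0.124 with the highest Q175 library at the level of the lowest wild-type library.

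The other myelin genes that fell have several roles. Ugt8a and Fa2h make galactosylceramide and its hydroxylated form, the signature lipids of myelin. Ugt8a lay at 42.1 to 56.2 CPM against 61.3 to 125 CPM and fell by 0.85 ± 0.114. Fa2h lay at 26.3 to 35 CPM against 36.8 to 68.5 CPM and fell by 0.80 ± 0.109. Aspa, aspartoacylase, releases acetate from N-acetylaspartate in oligodendrocytes. It lay at 14.5 to 23.3 CPM against 26.5 to 43.6 CPM and fell by 0.89 ± 0.12. For each of these 3 the adjusted p was 0.00169 and the groups did not overlap. Mobp, a basic protein of compact myelin, fell by 0.88 ± 0.126 (adjusted p = 0.00235), and Tspan2, a tetraspanin of the sheath, fell by 0.76 ± 0.079 (adjusted p = 0.00025). Cldn11, the tight junction claudin of myelin, fell by 0.71 ± 0.14 (adjusted p = 0.0265). Hapln2, a matrix link protein at nodes of Ranvier, fell by 0.53 ± 0.115 (adjusted p = 0.0486). With 1 library left out, Cldn11 lost its call in 9 of 16 fits and Hapln2 in 12 (adjusted p up to 0.0758 and 0.128). Erbb3, Gjc3, Pmp22 and Qk, which the list did not hold and which were picked out after their values were seen, fell by 0.70, 0.66, 0.60 and 0.43, and Qk lost its call in 6 of the 16 fits (adjusted p up to 0.0694).

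Other defining genes of the same cells were not called. Mbp, the main basic protein of compact myelin, changed by -0.48 ± 0.126 (adjusted p = 0.125), with levels between 2203 and 3154 CPM in Q175 libraries and between 2377 and 4763 CPM in wild-type ones. DESeq2 called its fall, as did the fits with the length trend removed, without Q175 female 2 and without wild-type female 1. Picked out after their values were seen, Mag changed by -0.19 ± 0.121, Mog by -0.15 ± 0.125, Cnp by -0.22 ± 0.0888 and Opalin by -0.17 ± 0.12. The regulators Sox10 and Myrf changed by -0.14 ± 0.0971 and -0.43 ± 0.12, and Olig1 by 0.22 ± 0.107. Per gene length the wild-type levels were 1765 FPKM for Mbp, 505 for Mobp, 182 for Cnp, 121 for Mal and 111 for Mag. Among these myelin genes, called and uncalled ones were found at high and low levels alike. In bulk tissue, fewer cells of a type and less RNA per cell cannot be told apart.

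**Figure D2:**
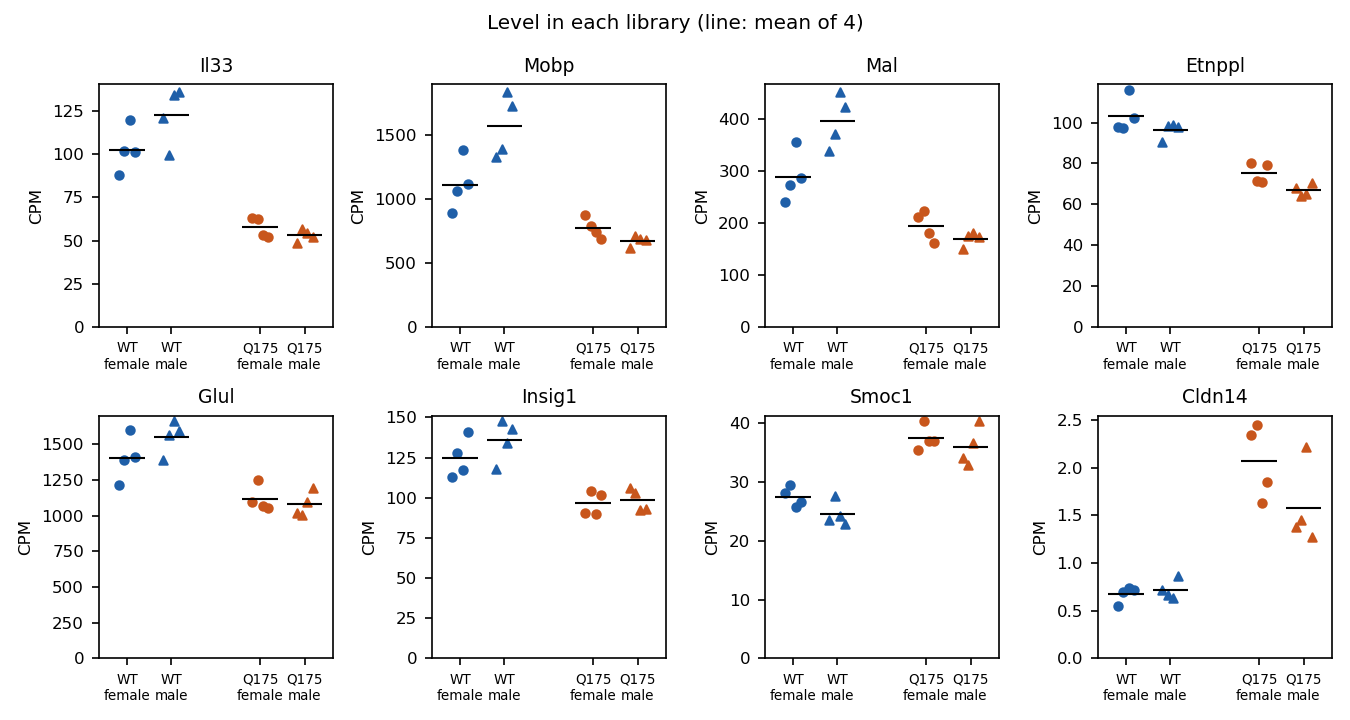
CPM of 8 genes in each of the 16 libraries, by genotype and sex (circles female, triangles male, blue wild type, orange Q175; the line is the mean of 4). Il33, Mobp, Mal, Etnppl and Insig1 lie lower in every Q175 library than in any wild-type library and Smoc1 and Cldn14 higher, while for Glul the highest Q175 library (1247 CPM) passes the lowest wild-type library (1217 CPM).

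Precursors of oligodendrocytes were read from a list of their own. Of 15 genes tested from that list 0 fell and 1 rose, and the median change was 0.01. The gene that rose was Smoc1, a secreted calcium-binding matrix protein. It lay at 35.5, 40.4, 37.1 and 37 CPM in Q175 females and at 34.2, 33, 36.7 and 40.4 CPM in Q175 males, against 28.1, 29.5, 25.7 and 26.7 CPM in wild-type females and 23.6, 27.6, 24.2 and 22.9 CPM in wild-type males. All Q175 libraries were above all wild-type libraries, and Smoc1 rose by 0.50 ± 0.0553 (adjusted p = 0.000309). Pdgfra, the growth factor receptor that defines precursors, changed by -0.12 ± 0.0895 (adjusted p = 0.563).

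**Figure D3:**
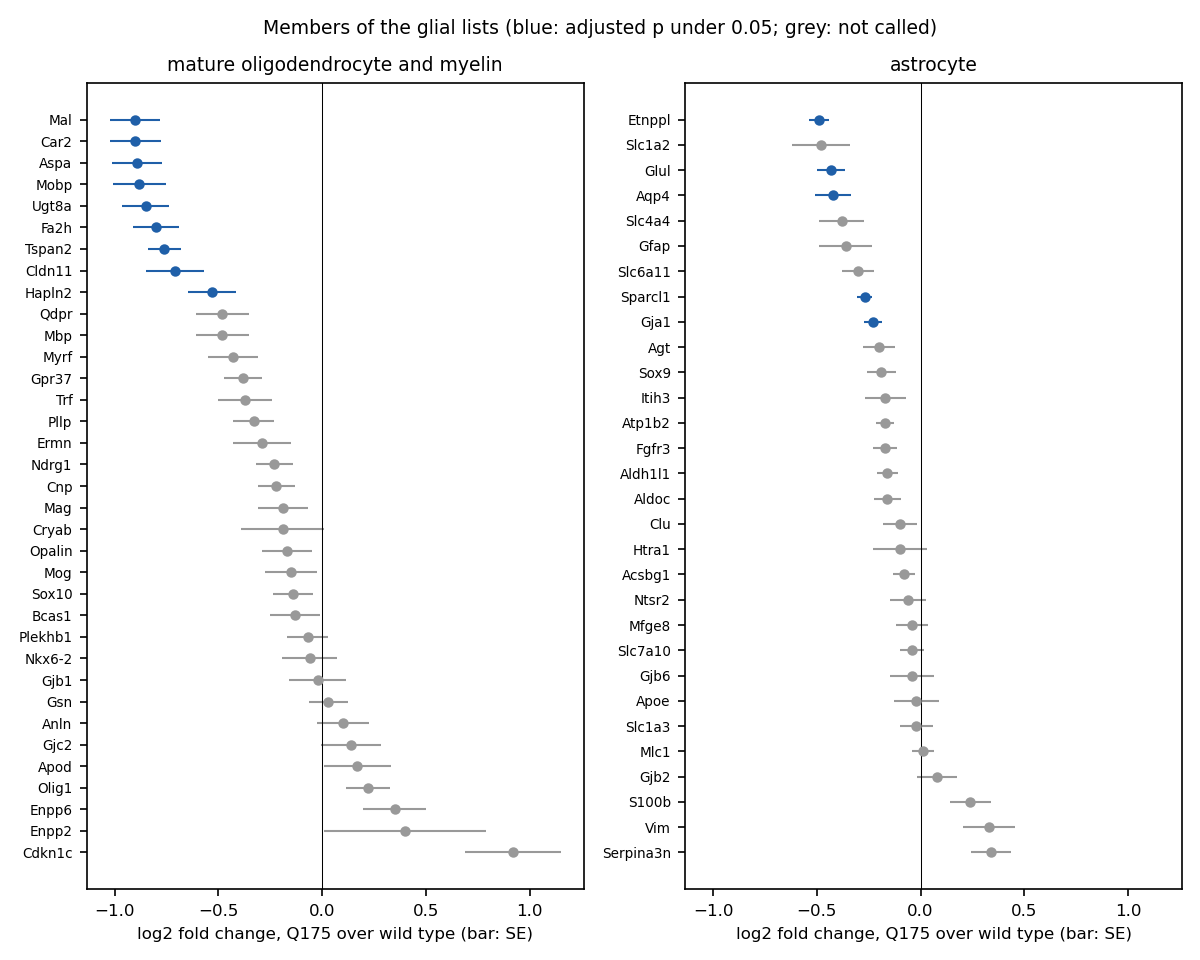
Log2 fold change of Q175 over wild type with its SE for mature oligodendrocyte and myelin genes, of which 1 is not drawn, and the 30 astrocyte genes, ordered by change; blue points were called and grey points were not. The blue oligodendrocyte genes drawn run from Hapln2 at -0.53 to Mal at -0.90, and the 5 blue astrocyte genes from Gja1 at -0.23 to Etnppl at -0.49.

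The change of the myelin genes was compared between the sexes, and no gene's difference passed adjustment in edgeR. The median change of the 36 genes was 0.02 in females and -0.55 in males. Mal changed by -0.58 ± 0.128 in females and -1.22 ± 0.13 in males (interaction unadjusted p = 0.00277, adjusted p = 0.493). Mbp changed by -0.10 ± 0.12 in females and -0.85 ± 0.121 in males (unadjusted p = 0.000463, adjusted p = 0.405). Mag, Mog, Cnp and Sox10 changed by 0.16, 0.20, 0.03 and 0.15 in females and by -0.54, -0.50, -0.46 and -0.42 in males. In all, 31 of the 36 genes had an unadjusted interaction p under 0.05, against 1228 of 16739 genes tested (7.34%), in edgeR's quasi-likelihood test. None of the 16739 differences passed adjustment in edgeR, where the lowest adjusted p was 0.338, while DESeq2 called 29. The 36 genes are measured in the same libraries and are not independent.

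Summed transcripts of the 36 genes were 7862 to 10264 CPM in Q175 females and 7488 to 10022 CPM in Q175 males. They were 8644 to 12327 CPM in wild-type females and 12712 to 16128 CPM in wild-type males. The 36 include Enpp2, also on the choroid plexus list, at 401 CPM (SD 524) in Q175 and 274 CPM (SD 57.8) in wild type. Q175 male 3, the library highest in choroid plexus transcripts, gave the 10022 CPM, and the part of Enpp2 in it was not tested. Wild-type males stood above every other library, and the females of both genotypes overlapped. The wild-type males also held more summed thalamic transcripts, 2917 to 3717 CPM against 2218 to 3330 CPM in wild-type females. Their summed hypothalamic transcripts were lower, 2340 to 3075 CPM against 2909 to 3288 CPM. The part of these in the values by sex was not tested, and sex and animal code cannot be told apart. All 96 called genes changed in the same direction in both sexes. They were chosen by their change over both sexes together, which favours the same direction in each. An unadjusted interaction p under 0.05 was seen for 28 of the 96, against 7.34% of all genes tested (edgeR). Il33 fell by 0.83 ± 0.11 in females and 1.21 ± 0.111 in males, Etnppl by 0.45 ± 0.0682 and 0.53 ± 0.0683, and Smoc1 rose by 0.45 ± 0.0778 and 0.55 ± 0.078.

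Of 30 astrocyte genes tested, 5 fell and 0 rose (16.7% called, against 0.574% of all genes). A change below 0 was seen in 25, against 47.9% of all genes, and the median was -0.16. The changes ran from -0.49 to 0.34, with 15 lower and 3 higher at an unadjusted p under 0.05. Their summed level lay between 11254 and 12065 CPM in Q175 libraries and between 13180 and 14377 CPM in wild-type ones, with no overlap. The sum is weighted to the abundant members, and these did not all change. Picked out after their values were seen, Slc1a3, Apoe and Mlc1 changed by -0.02, -0.02 and 0.01. Etnppl, ethanolamine-phosphate phospholyase, lay at 80.2, 71.3, 70.8 and 79.2 CPM in Q175 females and at 67.9, 63.9, 65 and 70.2 CPM in Q175 males. It lay at 97.6, 97.3, 116 and 102 CPM in wild-type females and at 90.3, 98.5, 99 and 97.9 CPM in wild-type males. The groups did not overlap, and it fell by 0.49 ± 0.048 (adjusted p = 0.000134).

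Glul, glutamine synthetase, which turns glutamate into glutamine, lay at 1004 to 1247 CPM against 1217 to 1664 CPM and fell by 0.43 ± 0.067 (adjusted p = 0.00385). Aqp4, the water channel of astrocyte end-feet, fell by 0.42 ± 0.0866 (adjusted p = 0.0331). Sparcl1, a secreted protein that promotes synapse formation, fell by 0.27 ± 0.0378 (adjusted p = 0.00181), from 2391 to 2697 CPM in wild type to 2088 to 2200 CPM in Q175. Gja1, the gap junction protein connexin 43, fell by 0.23 ± 0.0421 (adjusted p = 0.0168). Aqp4 lost its call in 10 of the 16 fits that left out 1 library (adjusted p up to 0.0917) and Gja1 in 2, without Q175 female 3 and without wild-type female 3 (adjusted p up to 0.0536). The main glutamate transporter of astrocytes, Slc1a2, changed by -0.48 ± 0.14 (adjusted p = 0.161), and Gfap, a filament protein that rises in reactive astrocytes, by -0.36 ± 0.128 (adjusted p = 0.236). Slc1a2 was called by DESeq2, without wild-type male 2, and without the 4 libraries with the length trend, where the change was -0.34. Serpina3n, another gene of reactive astrocytes, changed by 0.34 ± 0.0958 (adjusted p = 0.155). The count of astrocyte genes that fell was 10 without the 4 libraries with the length trend, 8 without wild-type male 2, and 3 without either Q175 female 3 or wild-type female 3.

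Lipid synthesis was read from a pair of lists. Of 18 fatty acid synthesis and desaturation genes 3 fell and 0 rose (16.7% called, against 0.574% of all genes). A change below 0 was seen in 17, against 47.9% of all genes, and the median was -0.18. Fads1, a desaturase of polyunsaturated fatty acids, lay at 238 to 256 CPM against 268 to 293 CPM without overlap and fell by 0.22 ± 0.0338 (adjusted p = 0.00366). Acss2, which makes acetyl-CoA from acetate, fell by 0.29 ± 0.0449 (adjusted p = 0.00373). Scd2, the stearoyl-CoA desaturase of brain, fell by 0.31 ± 0.0648 (adjusted p = 0.0398). Of 27 cholesterol synthesis genes 2 fell and 0 rose (7.41% called, against 0.574% of all genes), and the median was -0.07. Insig1, which holds the sterol sensor in the endoplasmic reticulum, lay at 89.9 to 106 CPM against 113 to 148 CPM without overlap and fell by 0.42 ± 0.0617 (adjusted p = 0.00281). Dhcr7, the last enzyme of cholesterol synthesis, fell by 0.22 ± 0.0479 (adjusted p = 0.0443). With 1 library left out, Dhcr7 and Scd2 each lost their call in 11 of 16 fits (adjusted p up to 0.115 and 0.113).

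Outside the glial and lipid lists, further genes fell. Grm3, a metabotropic glutamate receptor and the only member called of 28 glutamate and GABA-A receptor genes, fell by 0.49 ± 0.0675 (adjusted p = 0.00169) with no overlap. Fgfr2, a fibroblast growth factor receptor, fell by 0.65 ± 0.0937 (adjusted p = 0.00246). Pex5l, which binds pacemaker channels, fell by 0.84 ± 0.132 (adjusted p = 0.00392), and Kcnk13, a two-pore-domain potassium channel, by 0.50 ± 0.0746 (adjusted p = 0.00325). Pde8a, a cyclic AMP phosphodiesterase, fell by 0.78 ± 0.107 and Unc5b, a netrin receptor, by 0.56 ± 0.0788. Pkd2l1, a cation channel of neurons that contact cerebrospinal fluid, lay at 1.69 to 3.47 CPM against 4.05 to 6.98 CPM and fell by 1.04 ± 0.15 (adjusted p = 0.00247). Serpinb1a fell by 1.01 ± 0.153 and Trim59 by 0.91 ± 0.134. Tmod1, Arsg and Mcam fell by 0.59, 0.70 and 0.60, Itga7 by 0.28 and Erbin by 0.63.

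Of 23 immediate early genes, which mark recent neuronal activity, 1 fell (4.35% called, against 0.574% of all genes). A change below 0 was seen in 21, against 47.9% of all genes, with a median of -0.20. The gene that fell was Arc, a regulator of synaptic receptors, at 14.2 to 20.6 CPM against 18.1 to 30.8 CPM (change -0.50 ± 0.101, adjusted p = 0.0294). It lost its call in 9 of the 16 fits that left out 1 library (adjusted p up to 0.0748), and it was the list's 1 called member. Egr1 changed by -0.45 ± 0.177 (adjusted p = 0.282). Of 30 interferon response genes 0 were called and 26 had a change above 0, with a median of 0.13 and 9 higher at an unadjusted p under 0.05. Of 25 microglial genes 0 were called in either direction and 11 had a change below 0, with a median of 0.03; 0 of the 25 also had an unadjusted p under 0.05. Of 18 endothelial and mural genes 0 were called, with 8 lower and 0 higher at an unadjusted p under 0.05. Of 24 striatal projection neuron genes 1 rose and 0 fell, with a median of 0.02. None of 20 potassium and sodium channel genes was called in edgeR, with 9 lower and 1 higher at an unadjusted p under 0.05; Scn4b, a sodium channel subunit, changed by -0.73 ± 0.216 (adjusted p = 0.164).

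Most genes that rose were of low abundance. Cldn14, a claudin, lay at 2.35, 2.45, 1.63 and 1.85 CPM in Q175 females and at 1.38, 1.45, 2.22 and 1.27 CPM in Q175 males, against 0.551 to 0.869 CPM in the 8 wild-type libraries. The groups did not overlap, and it rose by 1.37 ± 0.155 (adjusted p = 0.000345). Tmc6, of the transmembrane channel-like family, lay at 6.35 to 9.32 CPM against 4.32 to 5.13 CPM and rose by 0.57 ± 0.0762 (adjusted p = 0.00169). Acy3, an aminoacylase, rose by 0.93 ± 0.15 (adjusted p = 0.00506). Rxrg, a retinoid X receptor and the striatal list member that rose, lay at 14 to 19.4 CPM against 7.17 to 14.6 CPM and rose by 0.58 ± 0.11 (adjusted p = 0.0197). Zfp488, a transcription factor of the oligodendrocyte lineage, rose by 0.27 ± 0.0544 (adjusted p = 0.0304). Slc45a3, a sugar transporter, rose by 0.67 ± 0.125 and Gpr27, an orphan receptor, by 0.60 ± 0.118, both without overlap. Fmo1, a flavin monooxygenase, Cd82, a tetraspanin, and Aass, of lysine breakdown, rose by 0.29, 0.36 and 0.42. Plscr2 and Ppl rose by 0.54 and 0.89. Of these genes, calls were lost in 3 of the 16 fits that left out 1 library for Rxrg, 5 for Gpr27, 9 each for Zfp488, Cd82 and Aass, and 12 for Ppl (highest adjusted p 0.0946, for Cd82).

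Abhd1, a hydrolase-fold protein, had the largest change of the genes above 1 CPM that rose. It lay at 6.74, 7.4, 6.48 and 5.34 CPM in Q175 females and at 5.96, 2.11, 7.03 and 5.33 CPM in Q175 males, against 1.37 to 2.29 CPM in wild type. Q175 male 2 alone lay within the wild-type range, while its Il33 level of 56.7 CPM lay among the other Q175 libraries. Abhd1 rose by 1.66 ± 0.193 (adjusted p = 0.000449). It is 1 of 4 called genes among the 200 tested genes nearest to Htt on chromosome 5, 100 on each side (2% called), with Insig1, Galnt11, which rose by 0.25 ± 0.045, and a predicted gene. All 4 lay on the same side of Htt, from place -54 (Abhd1) to place -97 (Galnt11) in the order of tested genes. On all of chromosome 5, 7 of 967 tested genes (0.724%) were called.

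Markers of parts within the dissected region were read in the same way, and none was called. All 7 habenular neuron genes had a change below 0, with a median of -1.23; 0 were called in edgeR and 5 had an unadjusted p under 0.05. Their summed level lay between 29.4 and 146 CPM in Q175 libraries and between 35.7 and 215 CPM in wild-type ones, where wild-type male 1 alone lay below 135 CPM. Over all genes tested, 47.9% had a change below 0. Of 20 thalamic neuron genes 18 had a change below 0, with a median of -0.25. Their sums were 1643 to 3135 CPM in Q175 against 2218 to 3717 CPM in wild type. Of 39 hypothalamic neuron and neuropeptide genes 35 had a change above 0, with a median of 0.37 and sums of 2487 to 3516 CPM against 2340 to 3288 CPM. None of the thalamic or hypothalamic genes was called in edgeR, while 5 thalamic genes were lower and 14 hypothalamic genes higher at an unadjusted p under 0.05.

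Fewer genes were called with these marker sums in the model. With the summed habenular transcripts as a term 27 genes were called, 19 lower and 8 higher, and 25 of them were among the 96. With the summed thalamic transcripts as a term 34 were called, 26 lower and 8 higher, and 32 were among the 96. All 96 kept their direction under either term, each with an unadjusted p under 0.05. The 96 were chosen by their change in these same libraries, which favours both. The count of oligodendrocyte genes that fell was 6 under the habenular term and 8 under the thalamic term, and that of astrocyte genes was 2 under each. Mal changed by -0.82 under the habenular and -0.79 under the thalamic term (adjusted p = 0.043 and 0.0335). Glul changed by -0.34 under each, against -0.43 without a term, and was called under neither (adjusted p = 0.124 and 0.0569).

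**Figure D4:**
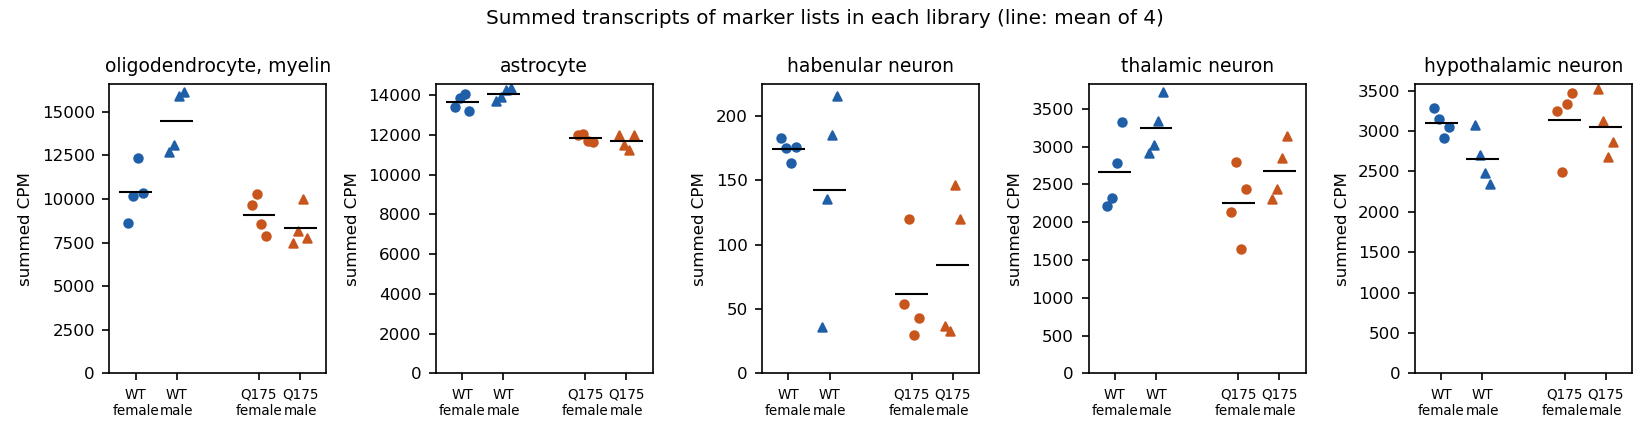
Summed CPM of 5 marker lists in each library, by genotype and sex (circles female, triangles male, blue wild type, orange Q175; the line is the mean of 4). Oligodendrocyte sums are highest in wild-type males (12712 to 16128 CPM), astrocyte sums separate the genotypes, and habenular sums vary most between libraries (29.4 to 215 CPM).

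Brainstem, hippocampus and cerebellum of the same 16 mice were set beside this region, with a test of the difference in the Q175 response in each pair of regions and the animal as a block. The difference was called for 10 of 17315 genes against brainstem (0.0578%), 26 of 17228 against hippocampus (0.151%) and 442 of 17301 against cerebellum (2.55%). Of the 96 genes, 3, 4 and 26 differed. By limma voom with the correlation within an animal estimated, 9, 37 and 35 did. The 96 were chosen by their change here, which favours a larger change here than in another region. Q175 against wild type within those regions called 3.07% of tested genes in brainstem, 4.56% in hippocampus and 16.1% in cerebellum. Of the 96, 53 were also called in brainstem and 18 in hippocampus, all in the same direction. In cerebellum 67 were called, 65 in the same direction. Il33 changed by -1.02 ± 0.0902 here, -0.70 ± 0.0591 in brainstem, -0.79 ± 0.0502 in cerebellum and -0.20 ± 0.0797 in hippocampus. The difference from hippocampus was -0.82 ± 0.141 (adjusted p = 0.0238), and the differences from brainstem and cerebellum were not called (adjusted p = 0.175 and 0.374).

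Among the myelin genes, Car2 fell by 0.90 ± 0.124 here and changed by -0.04 ± 0.0678 in hippocampus, a difference of -0.85 ± 0.149 (adjusted p = 0.0261). Tspan2 differed from cerebellum by -0.46 ± 0.0833 (adjusted p = 0.00611), with changes of -0.76 here and -0.29 there. The median change of the 36 myelin genes was -0.01 in brainstem, 0.20 in hippocampus and -0.24 in cerebellum. Within brainstem 10 of the 36 fell and 7 rose, within hippocampus 0 fell and 5 rose, and within cerebellum 25 fell and 0 rose. The change of 0, 1 and 1 of the 36 differed from this region. Smoc1 rose in all 4 regions, by 0.50 here, 0.82 in brainstem, 0.38 in hippocampus and 0.24 in cerebellum, and its rise here was larger than in cerebellum by 0.26 ± 0.0654 (adjusted p = 0.0424). Etnppl changed by -0.49 here, -0.71 in brainstem, -0.08 in hippocampus and -0.36 in cerebellum, with no difference called.

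Kcng4, a silent potassium channel subunit picked out for its regional difference, lay between 5.51 and 16 CPM in Q175 libraries and between 14.7 and 33.4 CPM in wild-type ones and fell by 1.14 ± 0.23 (adjusted p = 0.0294). It changed by 0.16 ± 0.0903 in brainstem, a difference of -1.35 ± 0.217 (adjusted p = 0.0217), and by -0.15 ± 0.0351 in cerebellum, a difference of -1.04 ± 0.221 (adjusted p = 0.0181). Its call was lost in 10 of the 16 fits that left out 1 library (adjusted p up to 0.0746). In the Q175 females it lay at 10.2, 16, 6.69 and 5.66 CPM, beside summed habenular levels of 53.6, 120, 29.4 and 42.8 CPM. In the Q175 males it lay at 5.51, 7.92, 14.1 and 10.5 CPM, beside 36.7, 32.9, 146 and 120 CPM. Wild-type male 1, with 35.7 CPM of habenular transcripts, held 14.7 CPM, and the other 7 wild-type libraries, with 135 to 215 CPM, held 16.4 to 33.4 CPM. With the habenular or the thalamic sum as a term, Kcng4 changed by -0.65 and -0.82 and was not called (adjusted p = 0.283 and 0.252). Zfp488 rose by 0.76 ± 0.0579 in brainstem and by 0.27 here, a difference of -0.49 ± 0.0782 (adjusted p = 0.0217). Cldn14 rose by more here than in cerebellum, by 1.0 ± 0.206 (adjusted p = 0.0145).

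**Figure D5:**
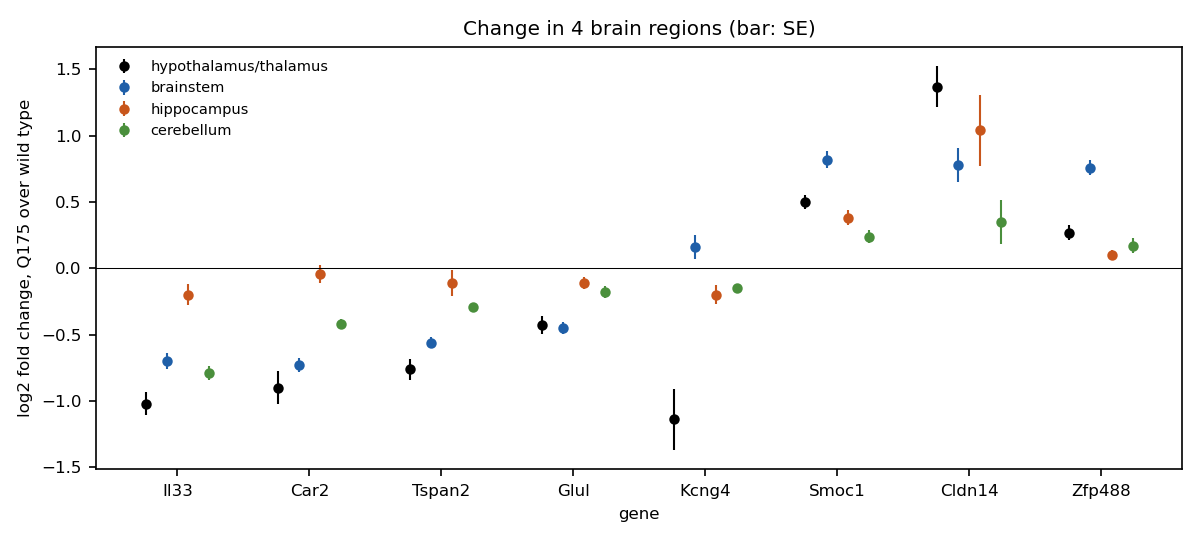
Log2 fold change of Q175 over wild type with its SE for 8 genes in 4 brain regions of the same mice. Il33 and Car2 lie nearest 0 in hippocampus (-0.20 and -0.04), Kcng4 is lowest in hypothalamus/thalamus (-1.14), and Zfp488 is highest in brainstem (0.76).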

How the data were processed

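Polyadenylated RNA of 16 hypothalamus/thalamus specimens was sequenced. The authors deposited estimated counts per gene, left unscaled between libraries, and FPKM values that the authors scaled to gene length and library total. Per the submitters' processing notes, CASAVA 1.8.2 was used. Aligner, counter, build, annotation and strandedness: not given in the sources used here. Whether reads of overlapping genes on opposite strands were told apart is therefore not known. Of 38561 gene identifiers 36639 (95%) were given a symbol.

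Counts were rounded and tested in edgeR 4.0.16 (R 4.3.3): TMM scaling, filterByExpr by genotype, robust quasi-likelihood F-tests with sex as a term, with p-values adjusted by Benjamini-Hochberg across all 16739 genes and calls at an adjusted p under 0.05. CPM and log2 fold changes were computed from the deposited counts. Sex and regional differences were tested as interaction terms, the latter with the animal as a block. Alternatives used DESeq2 1.42.0, limma 3.58.1 on log2(FPKM + 1) and voom, leaving out each library, and marker sums as terms, the last added after seeing the data, as were the subsets by library name. The models were tested on simulated data.

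Genes named are Htt, Il33, Etnppl and Smoc1, called genes of at least 1 CPM with an established symbol (up to 20 that rose and 30 that fell by p), up to 6 called members of each of 27 lists and the 2 most abundant by FPKM; of these, those with values to report are printed, and some are not reported here by name but stay in the counts. Outside the rule, named after their values were seen, are Cldn11, Hapln2, Kcng4, Erbb3, Pmp22, Qk and uncalled list members. Members and lists were chosen with earlier results of these data known. Python 3.11.15, pandas 2.3.3 and matplotlib 3.10.9 made tables and figures.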

Additional observations from a re-analysis of the deposited data

Results flagged for a closer look

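In 6 of 48 groups of 8 libraries looked at (24 genes in both genotypes), a single library stood apart from the rest of its group by more than Dixon's 95% critical value for its gap to the next library over the range. Chance gives about 1 in 20 such groups. Htt was low in wild-type male 2 (140 CPM, next 213). Abhd1 was low in Q175 male 2 (2.11 CPM, next 5.33). Etnppl was high in wild-type female 3 (116 CPM, next 102), Fads1 in Q175 male 1 (256 CPM, next 245), Tmc6 in Q175 male 3 (9.32 CPM, next 7) and Acy3 in wild-type male 4 (2.17 CPM, next 1.7).

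The Q175 response differed between regions for these named genes, by the interaction test. Against brainstem the difference in log2 change was -0.49 for Zfp488 and -1.35 for Kcng4. Against hippocampus it was -0.82 for Il33 and -0.85 for Car2. Against cerebellum it was 0.26 for Smoc1, -0.46 for Tspan2, -0.26 for Glul, 1.0 for Cldn14, 0.51 for Tmc6, -1.04 for Kcng4 and -0.70 for Pkd2l1.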

How the results depend on the processing

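All 96 called genes kept their direction in every setting run, which their choice from these same libraries favours, but the number called moved. It was 333 in DESeq2 (107 rose, 226 fell). In the 11 libraries whose names lack a part that starts with D and is not explained, it was 54 (8 and 46). In the 5 that have one it was 0 (0 and 0). There, 474 genes had an unadjusted p under 0.05, 31 of the 96 among them. That subset sets 2 Q175 libraries against 3 of wild type and was fitted without the sex term. The number called was 27 with the summed habenular transcripts as a term (8 and 19) and 34 with the thalamic sum (8 and 26). Leaving out 1 library gave 60 to 226 calls, 12 to 72 that rose and 48 to 154 that fell: 226 without wild-type male 2, 60 without wild-type female 3 and 63 without Q175 male 4; without Q175 male 3, 51 fell. The share that rose, 18.8%, was 32.1% in DESeq2, 31.9% without wild-type male 2 and 29.6% with the habenular term. Counts of 75 to 131 came from RLE factors, no filter, no sex term, the D part as a term, FPKM values, the length trend removed and the 4 libraries with it left out.

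A replicate block on the label numbers left 12 genes called (4 rose, 8 fell; 33.3% rose). The numbers do not pair the mice: correlations of same-numbered libraries ran from -0.516 to 0.544, and not every library was closest to its own number.

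The sex difference, 0 calls in edgeR, gave 29 in DESeq2. With limma voom the regional differences numbered 86 against brainstem, 151 against hippocampus and 532 against cerebellum. Mog (0.12) and Sox10 (0.05) changed sign in the libraries with a D part, which were fitted without the sex term, neither called. The cause of these shifts was not tested.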
